A study of Chelon labrosus with 24 samples.

Results

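ApoE, the gene of apolipoprotein E, was described in the liver of caged thicklip grey mullets (Chelon labrosus). Its probes were all those whose gene name on the array, ignoring case and punctuation, was ApoE, which gave 4 of the 638 probes and 1 of the 160 genes. The gene was picked out because its signal was so much lower at the second sampling than at the first. The differences between samplings are therefore a description and carry no test, and the differences between sites were tested. Site tests within a sampling use arrays that also entered the choice of the gene, so they are not independent of it.

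The series asked whether hepatic gene expression in caged sentinel fish reports on a polluted harbour. Immature mullets, collected as field fish, were held in cages in the inner or the outer part of Pasaia harbour and their livers were taken on 2 occasions. Each of the 4 combinations of site and sampling held 6 liver samples, and each sample was hybridised to its own single-colour oligonucleotide array. The sample labels place the samplings at day 5 and day 21, whereas the series text gives 3 and 15 days of exposure, so they are called the first and the second sampling here. All 4 groups were caged. Fish from before caging, or from outside the harbour, were not analysed here. The labels name 1 caging place per part of the harbour, so cage and site cannot be told apart. Nothing says outright that each sample is a separate fish, so the errors measure the spread between these samples.

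Apolipoprotein E sits on the surface of lipoprotein particles, which carry cholesterol and triglycerides through the blood. In mammals it is bound by receptors of the low-density lipoprotein receptor family, which take remnant particles out of the circulation, and the liver and macrophages are among its main sources. Bony fish such as zebrafish carry more than 1 ApoE gene. The RefSeq gene table of Chelon labrosus (assembly fCheLab1.1) lists 2, apoea and apoeb. Which of them the array reads is not settled by the files used here.

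The sequences of the 4 probes are shown because they decide how far the probes count as separate measurements. Each is 55 bases long, and each starts 1 base after the one before, so that all lie in a stretch of 58 bases. They are written 5′ to 3′ as the array files give them, and capitals mark the 52 bases common to all 4.
ApoE probe 1: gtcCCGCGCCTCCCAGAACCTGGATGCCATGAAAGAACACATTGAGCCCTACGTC
ApoE probe 2: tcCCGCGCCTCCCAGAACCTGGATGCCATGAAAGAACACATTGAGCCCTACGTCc
ApoE probe 3: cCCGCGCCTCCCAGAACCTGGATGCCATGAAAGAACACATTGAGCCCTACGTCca
ApoE probe 4: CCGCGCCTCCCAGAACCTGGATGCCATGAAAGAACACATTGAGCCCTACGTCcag
The 4 probes thus read 1 site of the transcript and are not independent of each other. Such tiling was common on the array: in 77 of the 157 genes with more than 1 probe, all probes of the gene shared at least 50 bases. The longest run that the ApoE probes shared with a probe of any other gene, on either strand, was 10 bases. Probe 1 was the brightest on average and stands for the gene wherever 1 probe is used.

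Each ApoE probe was spotted 4 times, which gave 16 spots per array. All 384 ApoE spots of the 24 arrays were well above background, 6 were marked as outliers by the scanner software and left out, and 0 were saturated. Levels are log2 processed signal minus the 75th percentile of the same array. The SD between the spots of a probe within an array had a median of 0.064 log2 units, and the pooled SD between samples of a group was 0.727, or 11.3 times as much. In the outer harbour at the second sampling these were closer, with an SD between samples of 0.320 and a spot SD that averaged 0.117. Variation between samples, which includes that between their arrays, and not between spots, set the errors that follow.

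At the first sampling ApoE gave a bright signal at both sites, with a wide spread between livers. In the inner harbour its level, as the mean of the 4 probes, was 0.31 in sample 2, -1.16 in sample 3, 0.93 in sample 4, 1.79 in sample 5, 0.31 in sample 7 and 0.60 in sample 8. In the outer harbour it was 0.13 in sample 1, 1.10 in sample 2, 0.64 in sample 3, -0.96 in sample 4, -0.68 in sample 5 and -0.07 in sample 8. The sites overlapped widely, with inner sample 3 the lowest of the 12 and inner sample 5 the highest. The means were 0.46 ± 0.97 (SD, n = 6) in the inner and 0.03 ± 0.78 (SD, n = 6) in the outer harbour.

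At the second sampling all 12 livers were lower than any liver of the first. The inner harbour gave -3.48 in sample 1, -3.29 in sample 2, -1.72 in sample 3, -3.15 in sample 4, -3.60 in sample 5 and -3.25 in sample 7. The outer harbour gave -4.65 in sample 2, -4.04 in sample 3, -4.30 in sample 4, -4.95 in sample 5, -4.57 in sample 6 and -4.69 in sample 7. Here the sites did not overlap: all 6 inner livers lay above all 6 outer ones, by 0.44 between the lowest inner and the highest outer liver. Inner sample 3 stood apart above the rest of its group. The means were -3.08 ± 0.69 (SD, n = 6) in the inner and -4.53 ± 0.32 (SD, n = 6) in the outer harbour. From the highest liver of all to the lowest the level spanned 6.73 log2 units, a 106-fold range.

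**Figure D1:**
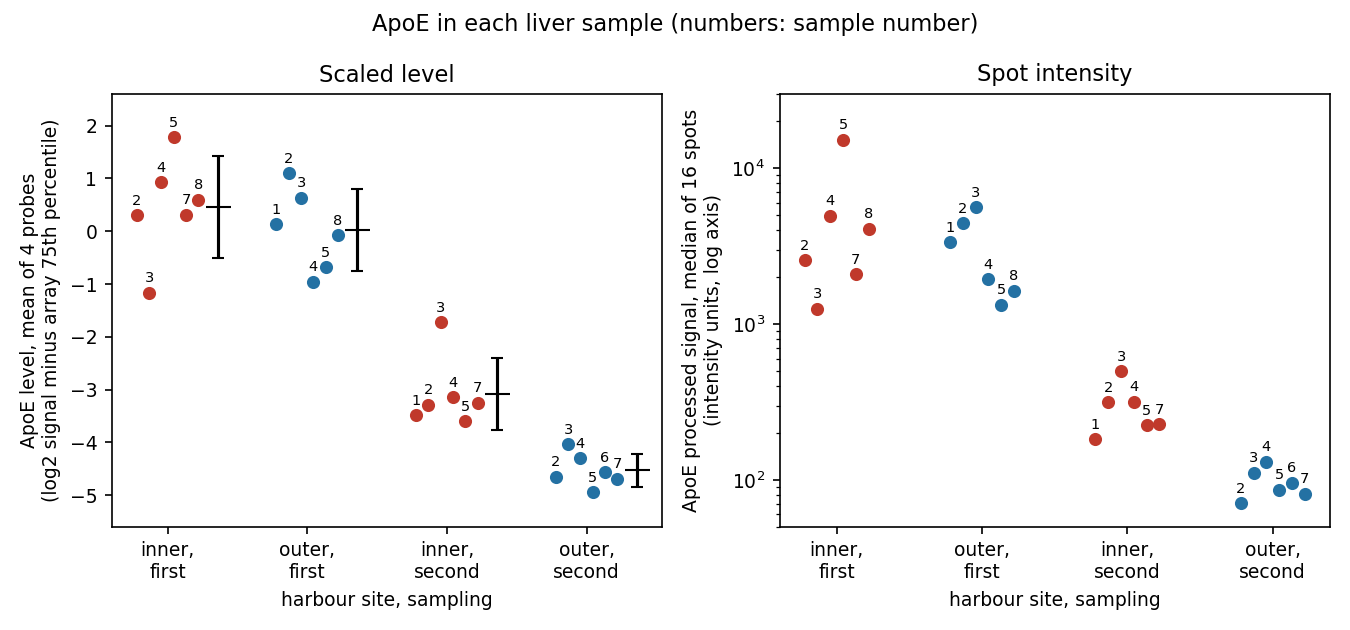
ApoE in each of the 24 liver samples, as the scaled level (left, log2 units, with the group mean ± SD) and as the processed spot intensity before scaling (right, log axis), red for the inner and blue for the outer harbour. On both scales the 12 second-sampling points lie below the 12 first-sampling points, with inner sample 3, at -1.72, the highest of the second sampling.

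The same order was visible in the spot intensities before any scaling. The median of the 16 spots lay between 1253 and 15306 in the inner and between 1330 and 5633 in the outer harbour at the first sampling. At the second it lay between 183 and 500.2 in the inner and between 70.9 and 131 in the outer harbour. The local background, measured before processing, was 38 to 44 and is not on the scale of these processed signals. Across the 4 groups the 75th percentile of log2 signal averaged 11.2 to 11.4, and the spike-in controls 12.1 to 12.2. The number of probes detected per array averaged 465 and 471 at the first sampling, inner and outer, and 448 and 428 at the second, and its part in the ApoE values was not tested.

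Between the samplings the brightest probe differed by -3.41 ± 0.39 log2 units (SE) in the inner harbour, 10.6-fold lower, and by -4.28 ± 0.39 (SE) in the outer harbour, 19.4-fold lower. Over the 4 probes the difference ran from -3.61 to -3.41 in the inner and from -4.70 to -4.28 in the outer harbour. These are the values that chose the gene. In these bulk livers, fewer cells of a type and less RNA per cell cannot be told apart. On every slide the first-sampling arrays filled one row and the second-sampling arrays the other, and the effect of array row cannot be told apart from that of sampling. Within each of the 3 slides ApoE was lower at the second sampling at both sites, by -2.87, -3.71 and -3.65 in the inner and by -4.66, -4.18 and -3.99 in the outer harbour.

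**Figure D2:**
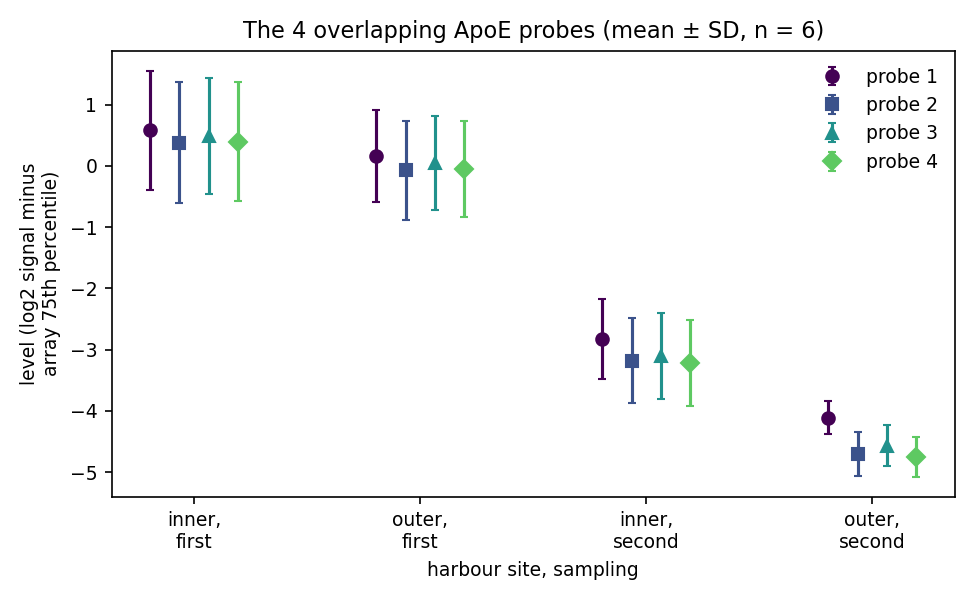
Level of each of the 4 overlapping ApoE probes by site and sampling (log2 signal minus the array's 75th percentile), with mean ± SD over 6 samples. The probes lie together at the first sampling and spread apart at the second, where probe 1 is the highest in both groups.

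The 4 probes parted as the signal became dim. The range between the highest and the lowest probe of a liver averaged 0.20 in the inner and 0.25 in the outer harbour at the first sampling, and 0.39 and 0.64 at the second. The size of the outer-harbour difference therefore depends on the probe more than that of the inner-harbour one.

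Among the 129 genes with a tested probe, each by its brightest probe, ApoE had the lowest difference between samplings in the outer harbour and the second lowest in the inner harbour. The gene below it in the inner harbour was Choriogenina_L, whose name is that of an egg envelope protein made in the liver of fish. It was at -4.75 ± 1.08 (SE), but was well above background in 5 of 6 livers at the first sampling and in 0 of 6 at the second, so that its difference rests on dim signals. Next above ApoE in the inner harbour came Cathepsin_L, a lysosomal protease, at -2.28 ± 0.39 (SE), and CYP_scc-24 at -2.22 ± 0.46. In the outer harbour the next were MHC_II, an antigen-presenting protein of immune cells, at -2.10 ± 1.64 (SE), the gluconeogenic enzyme phosphoenolpyruvate carboxykinase at -1.54 ± 0.36, and Catalase at -1.48 ± 0.24. ApoE thus stood more than 1 log2 unit below its neighbour above at both sites. As background, 7.56% of the 476 tested probes passed an adjusted p of 0.05 in the direction of lower second-sampling signal for inner livers, and 13.4% for outer livers, and the groups of the 2 samplings did not overlap for 10.1% and 7.75% of the 129 genes. Nothing is read from those shares for ApoE, which was selected on this difference.

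The median difference of all tested probes between samplings was 0.14 in the inner and -0.08 in the outer harbour, which put ApoE at -3.55 and -4.20 relative to it. Scaling the arrays in 7 other ways moved the ApoE difference between -3.82 and -3.20 in the inner and between -4.55 and -3.76 in the outer harbour. Under all 7 the second-sampling livers stayed below the first-sampling livers at both sites.

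At the first sampling a site difference in ApoE was not detected. The inner minus outer difference of the brightest probe was 0.41 ± 0.39 log2 units (SE), with a 95% confidence interval of -0.39 to 1.22 and an adjusted p of 0.512 by limma with Benjamini-Hochberg adjustment over the 476 probes. None of the 4 probes passed, where 14.5% of all tested probes did. An exact permutation test of the mean of the probes gave a difference of 0.43 with a two-sided p of 0.418 (n = 6 against 6).

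At the second sampling ApoE was higher in the inner than in the outer harbour. The brightest probe differed by 1.28 ± 0.39 log2 units (SE), or 2.43-fold, with a 95% confidence interval of 0.48 to 2.09 and an adjusted p of 0.0301 by limma. All 4 probes passed, with differences of 1.28 to 1.53 and adjusted p of 0.0142 to 0.0301, and since they share their sequence they count as 1 observation. As background, 12.8% of the tested probes were called higher in the inner harbour at this sampling and 0% lower, and 6.98% of the 129 genes had 2 sites that did not overlap. The exact permutation test gave 1.45 for the mean of the probes with a two-sided p of 0.00216, the smallest that 924 relabelings of 6 against 6 samples allow. The low outer-harbour values of this sampling also entered the difference for which the gene was picked. Neither test is therefore independent of that choice. The median of all tested probes also differed between the sites, by 0.10, and ApoE lay 1.18 above it. Without inner sample 3 the inner group was at -3.35 ± 0.18 (SD, n = 5), and the site difference of 1.03 missed the threshold, with an adjusted p of 0.0987 by limma. The call was also lost when outer sample 2, 5 or 7 was left out, with adjusted p of 0.0554, 0.0646 and 0.0637 by limma.

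**Figure D3:**
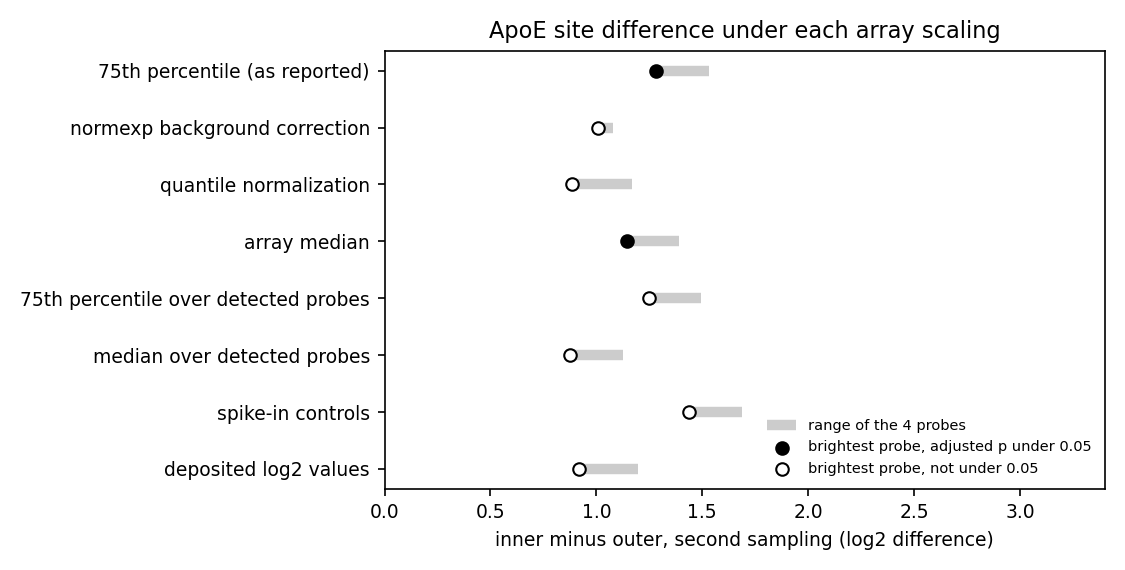
Inner minus outer difference in ApoE at the second sampling (log2 units) under each way of scaling the arrays, with the brightest probe as a point and the range of the 4 probes as a bar. All points lie above 0, between 0.88 and 1.44, and the filled points, with an adjusted p under 0.05, are those of the 75th percentile and of the array median.

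The direction of the second-sampling difference was the same under 7 other scalings, and its call was not. The brightest probe gave 0.88 to 1.44 and stayed past the threshold in 1 of the 7, scaling to the array median. At least 1 probe passed in 3 of the 7. All 6 inner livers lay above all outer ones in 6 of the 7, and with the median over detected probes 5 of 6 did.

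Averaged over both samplings the inner minus outer difference was 0.85 ± 0.28 log2 units (SE), with a 95% confidence interval of 0.28 to 1.42 and an adjusted p of 0.0640 by limma. This average is the site comparison that does not involve the change between samplings for which the gene was picked. Probes 2, 3 and 4 gave 0.95 to 0.99 and passed, with adjusted p of 0.0320 to 0.0353 by limma, while probe 1, the brightest, did not. The 4 probes share their sequence and count as 1 observation. As background, 7.35% of all tested probes were called. The exact permutation test within samplings gave 0.94 for the mean of the probes, with a two-sided p of 0.00610 (n = 6 per group). That p covers ApoE alone and was not adjusted over probes. Before adjustment the limma p of the brightest probe was 0.00538. Within slides the averaged difference was not of 1 sign: it was -0.15 on slide 1, where the inner livers were the lower ones at the first sampling, and 1.73 on slide 2. At the second sampling the inner harbour was the higher on each slide, by 0.75, 1.96 and 1.14.

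Whether ApoE differed more between samplings at one site than at the other was tested as an interaction. It is the difference between the changes for which the gene was picked, so this test is not independent of that choice. The brightest probe gave 0.87 ± 0.55 log2 units (SE), with a 95% confidence interval of -0.27 to 2.01 and an adjusted p of 0.343 by limma. The 4 probes ran from 0.87 to 1.09 and none passed, where 12.2% of all tested probes did. Over the 7 other scalings the brightest probe ran from 0.31, with the median over detected probes, to 1.05, with the spike-in controls, and passed in 0. A difference between the sites in the size of the change was therefore not shown. The interval of the brightest probe leaves room for one of up to 2.01 log2 units. For probes 2, 3 and 4 the upper limits were 2.28, 2.19 and 2.28.

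For Apo_A1, the other apolipoprotein on the array, no difference between samplings or sites was detected. Apolipoprotein A-I is the main protein of high-density lipoprotein. Its level averaged 6.58 ± 0.23 (SD, n = 6) in the inner and 6.65 ± 0.55 in the outer harbour at the first sampling, and 6.70 ± 0.06 and 6.66 ± 0.30 at the second. Between samplings it differed by 0.12 ± 0.20 log2 units (SE) in the inner harbour, with a 95% confidence interval of -0.30 to 0.53 and an adjusted p of 0.794 by limma. In the outer harbour it differed by 0.01 ± 0.20, with an interval of -0.41 to 0.42 and an adjusted p of 0.995 by limma. Across the other scalings its sign changed, with values of -0.20 to 0.11 in the inner and -0.27 to 0.34 in the outer harbour. The site differences in Apo_A1 were -0.07 and 0.04 at the 2 samplings, neither past the threshold. Apo_A1 was as bright as 18S, whose group means were 6.63 to 6.87. Of all probe spots 0 were marked as saturated, and whether signals this bright still follow the amount of RNA was not tested.

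**Figure D4:**
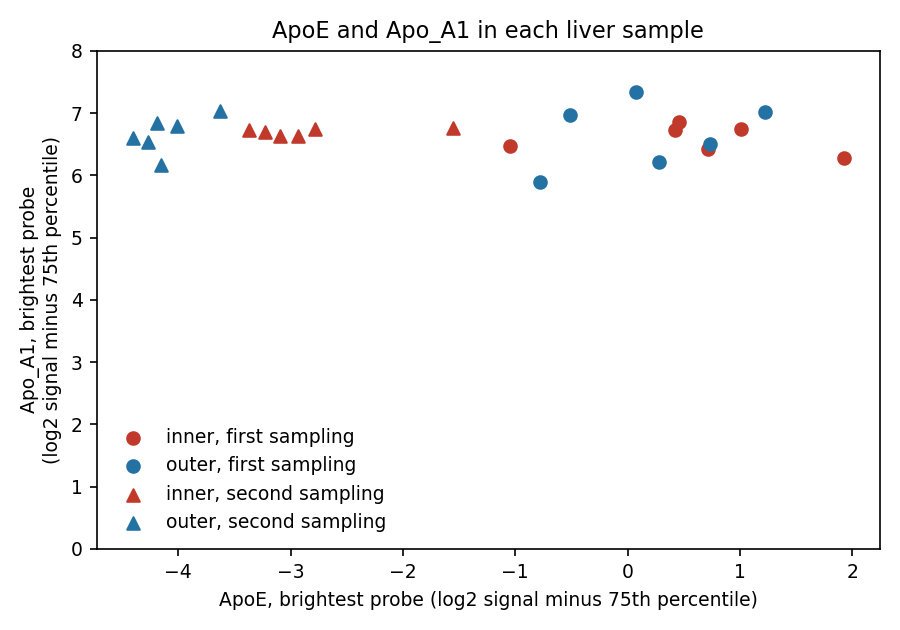
Apo_A1 against ApoE in the 24 liver samples, each by its brightest probe (log2 signal minus the array's 75th percentile, which does not compare the 2 genes' amounts). Triangles (second sampling) and circles (first sampling) separate along the ApoE axis, while Apo_A1 stays between 5.89 and 7.33 in all groups.

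Of 14 other lipid genes on the array, 12 had tested probes. They comprised Apo_A1, 3 lipid-sensing nuclear receptors, 5 genes of peroxisomes and fatty acid handling, 2 of bile acid synthesis and export, and 1 vitellogenin. The remaining vitellogenins, VTG-A and VTG-B, had no tested probe. In the inner harbour 1 gene rose between samplings, 2 fell and 9 did not pass, against 17.1% higher and 7.75% lower among all 129 genes. In the outer harbour 1 rose, 5 fell and 6 did not pass, against 2.33% higher and 13.2% lower. The median difference of the 12 was 0.01 in the inner and -0.33 in the outer harbour, beside 0.15 and -0.05 over all 129 genes. Between the sites, the first sampling had 1 of the 12, PPARg, higher in inner livers and 0 lower, against 5.43% and 7.75% of all 129 genes. At the second sampling 4 were higher, PPARg, MF1, Catalase and CYP7, and 0 lower, against 11.6% and 0%. The MF1 call held in 1 of the 7 other scalings, with a value as low as 0.39, that of Catalase in 4, CYP7 in 3 and PPARg in 4. The split of calls over all probes itself turned with the scaling, from 61 higher and 0 lower to 8 higher and 38 lower with the median over detected probes. The interaction passed for 3 of the 12, all above 0, against 10.1% above and 0.775% below 0. The comparisons between sites and between samplings share livers and are not independent of each other.

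**Figure D5:**
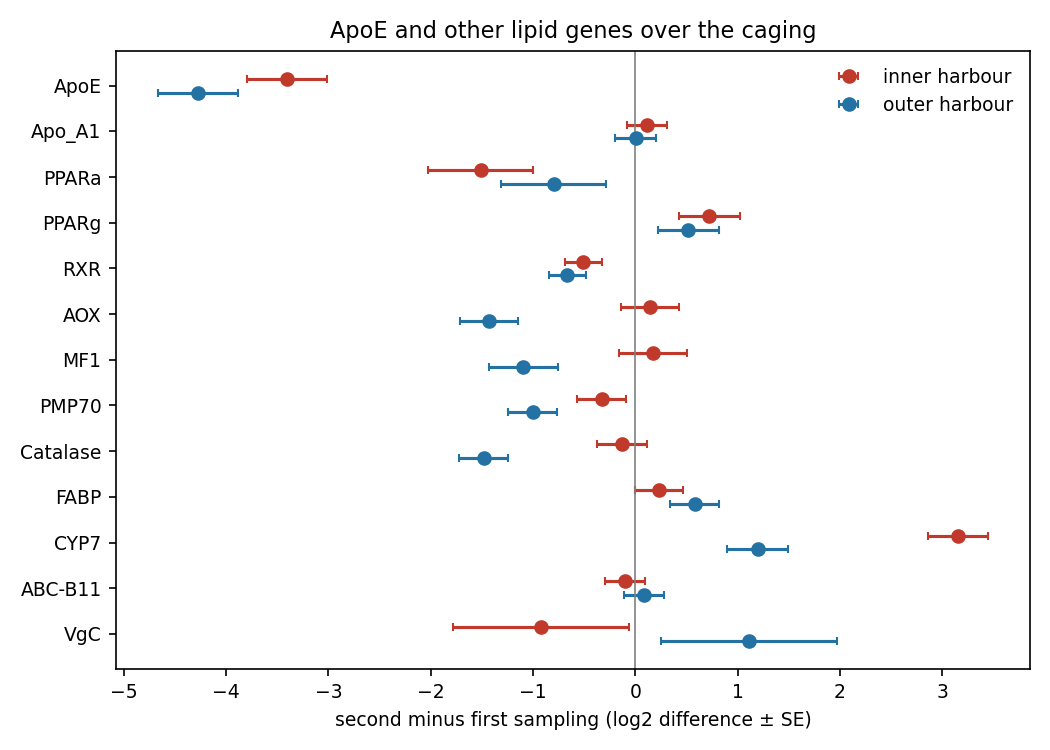
Second minus first sampling for ApoE and the 12 other lipid genes with tested probes (log2 difference ± SE from the fit, brightest probe, red for the inner and blue for the outer harbour). ApoE lies lowest at both sites, at -3.41 and -4.28, Apo_A1 lies near 0, at 0.12 and 0.01, and CYP7 lies highest, at 3.16 in the inner harbour.

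Among the nuclear receptors, RXR, the partner with which PPARs bind DNA, fell at both sites, by 0.51 ± 0.18 log2 units (SE) in the inner and 0.66 ± 0.18 in the outer harbour, with adjusted p of 0.0403 and 0.0113 by limma. These small changes passed in 3 and in 2 of the 7 other scalings. PPARa, a receptor that switches on fatty acid oxidation, fell by 1.51 ± 0.51 in the inner harbour, with an adjusted p of 0.0316 by limma. With normexp background correction it was at -0.29 and did not pass, and it passed in the other 6 scalings. Its brightest probe was well above background on 18 of the 24 arrays, so that part of its difference rests on dim signals. In the outer harbour PPARa was at -0.80 ± 0.51, which did not pass. PPARg, a receptor known for its role in fat storage, did not pass between samplings. It was higher in the inner than in the outer harbour at both, by 0.98 ± 0.30 and by 1.19 ± 0.30, with adjusted p of 0.0364 and 0.0123 by limma, which held in 5 and in 4 of the 7 other scalings.

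Of the 5 peroxisomal and fatty acid genes, 4 fell in the outer harbour, against 13.2% of all 129 genes, and 1 of these calls, that of MF1, was lost in all 7 other scalings. AOX, a common symbol of the acyl-CoA oxidase that starts peroxisomal fatty acid oxidation, fell by 1.43 ± 0.28 log2 units (SE). Catalase, which removes the hydrogen peroxide this makes, fell by 1.48 ± 0.24, and PMP70, a peroxisomal membrane transporter, by 1.00 ± 0.24. Their adjusted p by limma were 0.000839, 0.000113 and 0.00468, and all 3 calls held in 7 of 7 other scalings. MF1 fell by 1.09 ± 0.33, with an adjusted p of 0.0245 by limma. With normexp background correction PMP70 was at -0.47 and MF1 at -0.23. In the inner harbour the differences of these 4 genes were 0.14, -0.13, -0.33 and 0.18, and none passed. The sites differed in this change for AOX, with an interaction of 1.57 ± 0.40 and an adjusted p of 0.0126 by limma, and for Catalase, with 1.35 ± 0.34 and 0.0126. These calls held in 6 and in 2 of the 7 other scalings, with values down to 1.01 and 0.79. The fatty acid binding protein FABP was at 0.23 and 0.58, neither past the threshold.

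CYP7, which bears the name of the enzyme family that turns cholesterol into bile acids, ran opposite to ApoE between samplings. It rose by 3.16 ± 0.29 log2 units (SE) in the inner and by 1.20 ± 0.29 in the outer harbour, where its adjusted p by limma was 0.00549. Its interaction was 1.96 ± 0.42, with an adjusted p of 0.00318 by limma, a call kept in 2 of 7 other scalings, with values of 1.40 to 2.14. At the second sampling it was higher in the inner harbour by 1.15 ± 0.29, with an adjusted p of 0.0129 by limma. ABC-B11, the name of the bile salt export pump, was at -0.10 and 0.09, and Mugil_cephalus_VgC, a vitellogenin, at -0.92 and 1.11, none past the threshold.

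Likeness to the ApoE profile was measured by Pearson's r between ApoE, as the mean of its probes, and the brightest probe of each of 128 other genes over the 24 arrays. The most alike were phosphoenolpyruvate carboxykinase at 0.825, RXR at 0.807, Cathepsin_L at 0.769, Catalase at 0.723, ABCC3 at 0.703 and Epoxide_hydrolase1 at 0.644. The ABCC3 probe was well above background on 14 of the 24 arrays, so its r rests in part on dim signals. The least alike were Cu-Zn_SOD at -0.885, which removes superoxide, the conjugating enzyme GST at -0.813, alcohol_DHVI at -0.742 and CYP7 at -0.730. All genes of an array share its scaling, and the ApoE values form separate clusters by sampling. Differences between samplings therefore enter these values, which describe these arrays only. They do not order genes by the size of that difference. RXR differed by -0.51 and -0.66, inner and outer, and Choriogenina_L, with r of 0.386, by -4.75 and -0.63. Cu-Zn_SOD rose by 1.84 ± 0.19 log2 units (SE) in the inner and 1.57 ± 0.19 in the outer harbour, and GST by 2.77 ± 0.20 and 1.80 ± 0.20. Both genes were named for their low r over these same arrays, so their changes are a description and carry no test.

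With the group means taken away, r describes whether livers of a group deviated together. Epoxide_hydrolase1, which opens reactive epoxides, was then the most alike at 0.721, followed by the mitochondrial gene Mugil_cephalus_ND4 at 0.649, the growth factors Bone_morphogenetic_protein at 0.572 and HGF at 0.570, and phosphoenolpyruvate carboxykinase at 0.562. The least alike were CYP2_N at -0.568, PPARg at -0.564 and Choriogenina_L at -0.536, the last well above background on 8 of 24 arrays. These values did not hold alike at both samplings. With the site means kept, r over the first and over the second sampling was -0.701 and 0.041 for CYP2_N. It was -0.448 and 0.815 for PPARg, and -0.309 and -0.151 for Choriogenina_L. The median over the 128 genes was 0.155. Epoxide_hydrolase1 and phosphoenolpyruvate carboxykinase stood among the most alike by both measures.

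Liver plasma proteins were looked at beside the tissue label, and all 7 were well above background on all 24 arrays. So were 363 of the 476 tested probes, and detection alone therefore says little of the tissue. Between samplings 2 of the 7 rose in the inner harbour, Transferrin by 0.78 and a-2_macroglobulin by 1.07, and 0 fell, against 17.1% higher and 7.75% lower among all 129 genes. The calls held in 1 and in 7 of the 7 other scalings. In the outer harbour none passed, against 2.33% higher and 13.2% lower among all 129 genes. The list for blood cells and macrophages held 4 genes, chosen by name. Of these, 1 fell at both sites, Cathepsin_L, and 3 did not pass, against 7.75% of the 129 genes lower in the inner and 13.2% in the outer harbour. Cathepsin_L is a lysosomal protease, and which cells of these livers made it was not tested. The other 3, MHC_II, Mhc2 and Liza_aurata_immunoglobulin, were at 4.13 ± 1.64 (SE), 1.01 ± 0.67 and 0.55 ± 0.39 in the inner harbour. In the outer harbour they were at -2.10 ± 1.64, -0.81 ± 0.67 and -0.37 ± 0.39. Their inner-harbour estimates lay on the other side of 0 from ApoE, but none passed. The summed signal of the 4 is nearly all that of Cathepsin_L and says little of the other 3: on the log2 scale it ran from 0.42 to 2.10 in the inner and from 0.62 to 1.52 in the outer harbour at the first sampling, and from -2.08 to 0.30 and from -1.39 to 0.39 at the second. MHC_II was well above background in 1 and 6 of 6 livers at the first sampling, inner and outer, and in 4 and 4 of 6 at the second. Mhc2 was so in 2 and 3 of 6 at the first and in 2 and 1 of 6 at the second, so its differences rest on dim signals. The part of blood cells and macrophages in the ApoE difference was not tested. Trypsin, the marker of pancreas tissue that lies in or near the liver of many fish, ranged from -4.34 to 4.78 over the livers and did not pass between samplings, at 1.42 ± 1.46 (SE) and 2.68 ± 1.46.

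Of the reference genes, 18S was at 0.07 in the inner and 0.24 in the outer harbour between samplings, neither past the threshold. Beta-actin rose by 0.56 ± 0.20 log2 units (SE) in the inner harbour, with an adjusted p of 0.0391 by limma, a call kept in 2 of the 7 other scalings. EF1-alpha fell by 0.77 ± 0.25 in the outer harbour, with an adjusted p of 0.0372 by limma that was lost in all 7 other scalings. Each of these differences was small beside that of ApoE.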

How the data were processed

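Liver RNA of 24 samples (4 groups of 6) was labelled with Cy3 and hybridised to single-colour Agilent arrays, per the labels' protocols. The deposited scanner files hold spot intensities. Per the file headers, the scans were processed with Agilent Feature Extraction, version 9.5.3.1. A deposited table of log2 values, whose normalization is not given in the sources used here, served as an alternative. For all 24 columns the best match among the arrays was the array of the same sample (r at least 0.992), with medians of 6.774 to 6.818.

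Processed intensities were taken to log2, averaged over the spots of a probe without outlier marks, and set against the 75th percentile of the array. Probes with at least 50% of spots well above background on at least 6 arrays were tested: 476 of 638, in 129 genes. Between 371 and 484 probes were detected per array. The number of arrays limits the precision.

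limma 3.58.1 in R 4.3.3 was fitted with 1 coefficient per group over 24 arrays, with Benjamini-Hochberg adjustment over the 476 probes and a threshold of 0.05. The fit was tested on simulated data. Exact permutation tests used the mean of the 4 ApoE probes, an average added after the data were seen. Their p were not adjusted over probes. The genes named were ApoE, the 6 most and 4 least alike over 24 arrays, the 5 most and 3 least alike within groups, the genes next to ApoE in the order of the changes, and every tested lipid gene. Checks on marker and reference genes were added to these. The lipid gene interactions under other scalings were also computed after the data were seen. The members and lists were chosen with earlier results of these data known. Samples were not treated as paired by the numbers shared between groups in the main fit. Over 29 same-numbered pairs, deviations from the group means correlated at -0.36 to 0.39, and 7 pairs exceeded 0.1. Pairs of unlike number were not computed for comparison, so these values cannot exclude pairing. Alternatives covered scaling, background correction, the filter, the probe, slide, number blocks and leaving out each array.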

Additional observations from a re-analysis of the deposited data

Results flagged for a closer look

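Inner-harbour sample 3 of the second sampling stood apart within its group. Its gap to the next liver took up 0.759 of the range of the 6 livers for the mean of the ApoE probes, and 0.673, 0.789, 0.742 and 0.746 for probes 1 to 4, against a critical value of 0.625. The 4 probes share nearly all their bases, so this is 1 observation, and chance marks about 1 group in 20. The sample was at -1.72, and the other 5 livers lay between -3.60 and -3.15.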

How the results depend on the processing

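The ApoE difference between samplings kept its direction under all alternatives run. In the inner harbour ApoE ranked lowest of the genes, rank 1, with normexp background correction. The second-sampling site difference kept its direction but lost its call with normexp (1.01, adjusted p 0.0949), quantile normalization (0.88, 0.219), the 75th percentile over detected probes (1.25, 0.0546), the median over detected probes (0.88, 0.109), spike-ins (1.44, 0.0540) and the deposited log2 values (0.92, 0.192), all by limma. The difference averaged over samplings passed with the array median (0.85), the 75th percentile over detected probes (0.96) and only probes detected on all arrays (0.85). It also passed with probes 2, 3 and 4 (0.99, 0.95 and 0.99) and with the mean of the probes (0.94). The exact permutation test (0.94) gave a p of 0.00610 that was not adjusted over probes, so it is not counted with these. Within slide 1 the first-sampling difference was -1.04, the averaged one -0.15 and the interaction 1.79. Within slide 2 the first 2 were 1.49 and 1.73. Calls at the second sampling over all probes, 61 higher and 0 lower, became 8 and 38 with the median over detected probes, 10 and 8 in the deposited table, 38 and 2 with the array median, 11 and 14 after quantile normalization, 43 and 0 with normexp and 41 and 0 with spike-ins. Leaving out 1 array at a time gave 0.14 to 0.74 at the first sampling, 1.03 to 1.39 at the second (20 of 24 past the threshold), 0.71 to 1.01 averaged (2 of 24 past: without inner first sample 3, 1.01, and without outer first sample 2, 0.95), 0.54 to 1.14 for the interaction, and -3.73 to -3.14 and -4.47 to -4.07 between samplings. With the replicate block the site differences were 0.41, 1.28 and 0.85 and the interaction 0.87, and it changed no ApoE call. The limits are 1 caging place per site, 6 livers per group, 1 probed site in the transcript, and dim outer-harbour signals at the second sampling, where the probes parted most.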
